A study of Homo sapiens with 8 samples.

Results

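The 10 genes described are the immediate early genes FOS, FOSL1, JUN, JUNB, EGR1, IER2, IER3, DUSP1 and KLF6, and MYC. They were chosen by gene symbol, which gave 11 probes, 2 of them for MYC, among 30111 probes of 20045 named genes. RNA came from U6A, a human fibrosarcoma line that lacks its own STAT2, in which either wild-type STAT2 or the T387A form of STAT2 was expressed. Both lines grew in DMEM with serum, and 1 bead array was run per line for untreated cells (0 h) and for cells given 100 IU/ml of IFN-β, the type I interferon interferon-beta, for 4, 8 or 24 h. Whether a line was 1 clone or a pool, and which promoter drove STAT2, is not given in the sources used here. STAT2 was not analysed here, so its level was not used to check the line labels.

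Immediate early genes are transcribed within minutes of a growth factor, cytokine or stress signal without new protein synthesis, often through the kinase ERK and the serum response factor SRF. Most of their transcripts are unstable and decay within hours. FOS, FOSL1, JUN and JUNB encode subunits of the AP-1 transcription factor, EGR1 and KLF6 encode zinc-finger transcription factors, and DUSP1 encodes a phosphatase that switches off MAP kinases. IER2 encodes a nuclear regulator of transcription and IER3 a stress-response protein linked to cell survival. MYC encodes a transcription factor that pairs with MAX on E-box DNA and drives growth, and interferons are known to lower it in some cell lines.

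Values are intensities that the authors had background-subtracted and equalised between arrays, so they compare 1 probe across arrays and not 1 gene with another. A floor of 10.7 replaced lower values before log2 was taken, and the 13656 genes that exceeded it on at least 1 array were tested with limma. Of 8 interferon-induced genes used as a check, 7 passed as higher at 4 h, all 8 at 8 h and 7 at 24 h. Of 14 fibroblast markers 10 were above the floor on all 8 arrays, COL1A1 and COL1A2 were above it on 3 and THY1 on none. Of 7 epithelial markers 3 exceeded the floor on any array and 0 on all 8, and CDH1, KRT19, KRT5 and KRT14 were under it throughout. Of 6 leukocyte markers 4 exceeded it on any array and 1, CD68, on all 8 (1335.4 to 3023.2), while PTPRC and CD3E were under it throughout. Of 5 endothelial markers PECAM1 and TIE1 exceeded it on all 8 arrays, and CDH5, VWF and KDR on none.

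KLF6 was the single gene of the group that passed the test. It encodes a Krüppel-like factor that binds GC-rich DNA and is described as a tumour suppressor. The gene lies on chromosome 10 from 3775996 to 3785209 (GRCh38.p14, RefSeq). In wild-type cells its intensity was 327.3, 697.3, 874.9 and 567.0 at 0, 4, 8 and 24 h. In T387A cells it was 404.8, 865.2, 951.6 and 552.2 at these times. All 6 treated arrays stood above both untreated ones, and 11.3% of all genes were separated in this way in one direction or the other. The 4 arrays at 4 and 8 h also stood above the 4 at 0 and 24 h, as did those of 3.82% of all genes.

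By 8 h KLF6 rose by 1.33 ± 0.12 on the log2 scale (SE, 2 arrays against 2), or 2.51-fold, with limma adjusted p = 0.0244. It was higher in both lines at all 3 treated times. Its estimate was 1.09 ± 0.12 at 4 h (limma adjusted p = 0.064) and 0.62 ± 0.12 at 24 h (limma adjusted p = 0.136). The difference of 24 h from 4 h was -0.47 ± 0.12 (limma adjusted p = 0.134). With the floor at 100 that difference passed (limma adjusted p = 0.0320), as did those of 1011 of the 6335 genes then tested. At 8 h 1 of the 9 genes tested passed, against 0.945% of all 13656 genes. At 4 h and 24 h 0 of the 9 passed, where 0.344% and 1.02% of all genes did. KLF6 was past 2-fold in both lines at 4 h and 8 h, as were 0.674% and 1.13% of all genes in the upward direction.

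The 8 h call held in all 9 alternative settings that kept the 8 arrays, with estimates of 1.25 to 1.36. It was lost when any 1 of the 8 arrays was left out, with estimates of 1.24 to 1.41 and limma adjusted p = 0.133 to 0.278. In those 8 fits limma called 0 of 13656 genes, and 1577 to 2343 genes had an unadjusted p under 0.05. The 4 h difference passed in 5 of the 9 other settings and the 24 h difference in 2.

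**Figure D1:**
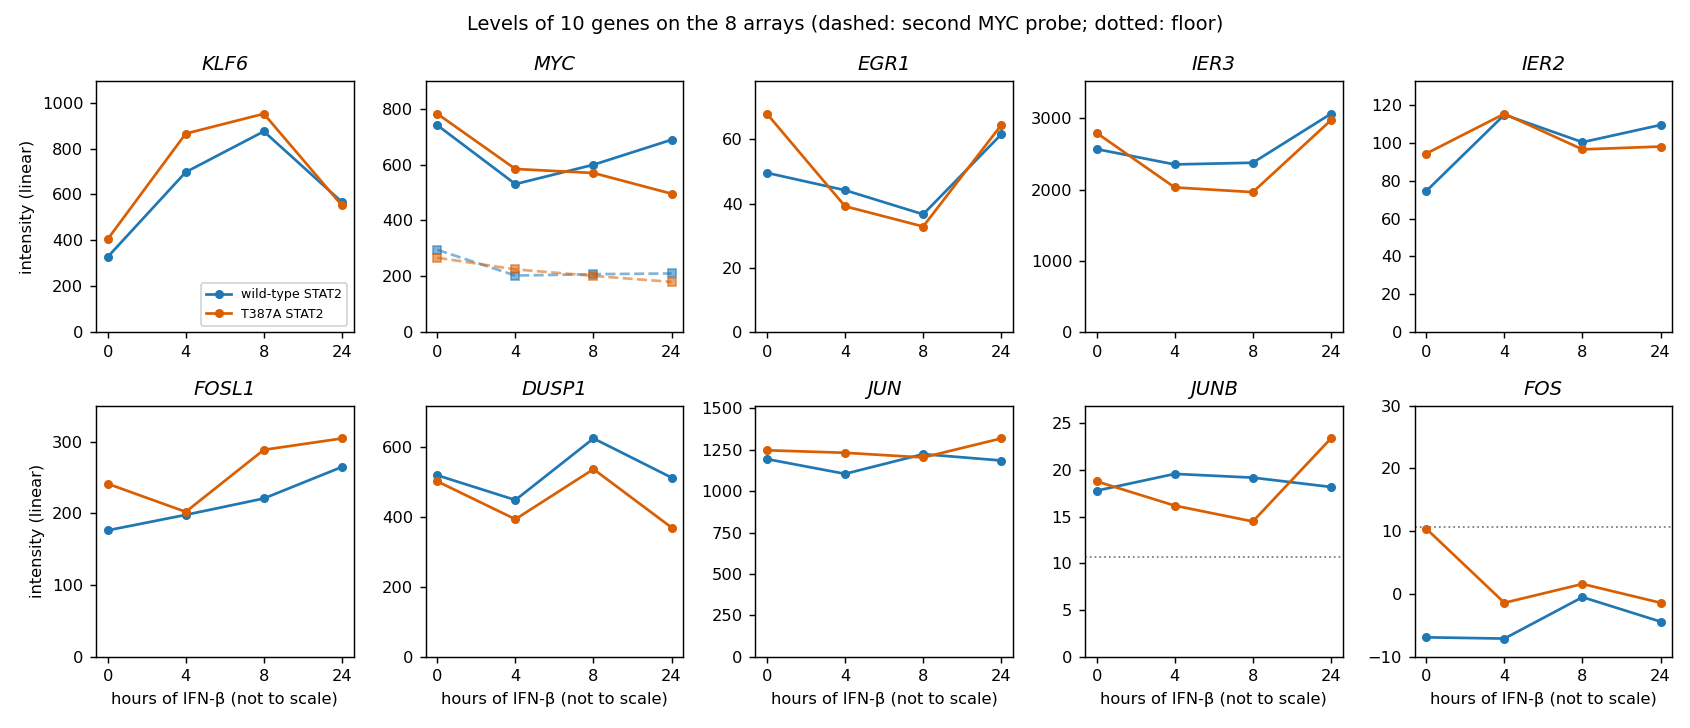
Intensity (linear, each panel with its own axis) of the 10 genes at 0, 4, 8 and 24 h of IFN-β in cells with wild-type STAT2 (blue) and T387A STAT2 (orange), 1 array per point. KLF6 rose from 327.3 and 404.8 at 0 h to 874.9 and 951.6 at 8 h, EGR1 and IER3 stood lower at 4 and 8 h than at 0 and 24 h, and FOS stayed under the floor of 10.7 on all 8 arrays.

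The 250 bases before the annotated start of KLF6 are shown because KLF6 was the gene that rose. RefSeq promoters of build GRCh38.p14 were at hand for 7 of the 10 genes: FOS, JUN, JUNB, EGR1, IER2, DUSP1 and KLF6. They were searched on both strands for TGACGTCA (CRE), TGANTCA (AP-1), CACGTG (E-box), GCGNGGGCG (EGR), TTCNNNGAA (the STAT dimer site GAS), the core of the interferon-stimulated response element, the CArG box of SRF and the NF-kB site. KLF6 lies on the minus strand, and its window is chr10:3785210-3785459. The capitals mark an E-box from base 97 to base 92 before the start and an EGR match from base 65 to base 57.
KLF6: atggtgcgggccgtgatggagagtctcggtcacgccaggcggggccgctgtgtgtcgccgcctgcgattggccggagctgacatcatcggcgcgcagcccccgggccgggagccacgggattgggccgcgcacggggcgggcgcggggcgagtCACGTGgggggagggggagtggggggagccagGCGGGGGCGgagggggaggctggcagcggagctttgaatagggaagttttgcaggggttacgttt
E-boxes were in 6.34% and EGR matches in 8.41% of the 35116 promoter windows of this length. The interferon-stimulated response element core was matched in none of the 7 windows and in 3.02% of all windows. These are matches of letters, and no factor's binding was measured.

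MYC was lower on all 6 treated arrays than on both untreated ones, though it did not pass the test. In one direction or the other 11.3% of all genes were separated in this way. The gene lies on chromosome 8 from 127735434 to 127742951. Its brighter probe read 741.3, 530.4, 599.7 and 689.2 in wild-type cells at 0, 4, 8 and 24 h, and 782.2, 584.5, 570.1 and 495.8 in T387A cells. The levels separated most at 24 h, where T387A lay below its own 8 h value and wild type above it.

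The second MYC probe read 294.9, 202.7, 207.6 and 210.2 in wild-type cells and 266.6, 224.9, 201.5 and 179.9 in T387A cells. On this probe too the treated arrays lay below both untreated ones. The estimates of the brighter probe were -0.45 ± 0.17, -0.38 ± 0.17 and -0.38 ± 0.17 at 4, 8 and 24 h (limma adjusted p = 0.282, 0.411 and 0.433). With 1 array left out at a time the 24 h estimate of MYC ran from -0.64 to -0.12. The second probe gave -0.39 ± 0.12, -0.46 ± 0.12 and -0.53 ± 0.12 when each of 18596 probes was tested on its own (limma adjusted p = 0.233, 0.229 and 0.183). The 2 probes thus gave the same direction at each time, while their differences of 24 h from 4 h had opposite signs, 0.07 and -0.13.

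EGR1 and IER3 had their lowest levels at 4 and 8 h in both lines, without passing the test. EGR1, a target of SRF that lies on chromosome 5 from 138465479 to 138469303, read 49.6, 44.2, 36.7 and 61.6 in wild-type cells. In T387A cells it read 68.0, 39.2, 32.9 and 64.5. IER3, on chromosome 6 from 30743199 to 30744547, read 2568.5, 2353.3, 2377.3 and 3064.0 in wild-type cells and 2795.4, 2030.7, 1964.8 and 2973.3 in T387A cells. For both genes the 4 arrays at 4 and 8 h lay below the 4 at 0 and 24 h, as they did for 5.4% of all genes.

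Neither gene passed the test at any time. EGR1 had estimates of -0.48 ± 0.18 at 4 h and -0.74 ± 0.18 at 8 h (limma adjusted p = 0.277 and 0.185), with an unadjusted 95% interval of -1.21 to -0.27 at 8 h. IER3 had estimates of -0.29 ± 0.13 and -0.31 ± 0.13 (limma adjusted p = 0.339 and 0.367). With 1 array left out at a time EGR1 ran from -0.75 to -0.21 at 4 h and from -1.01 to -0.47 at 8 h, and IER3 from -0.44 to -0.14 and from -0.46 to -0.16. In the 8 alternative settings that kept the 8 arrays and tested EGR1, it ran from -0.48 to -0.28 at 4 h. At 8 h it ran there from -0.74 to -0.42, so its size depended on the processing. From 4 h to 24 h EGR1 differed by 0.60 ± 0.18 and IER3 by 0.47 ± 0.13 (limma adjusted p = 0.17 and 0.147), and 0 of the 9 genes passed in that comparison, where 1.02% of all genes did. The log2 levels of EGR1 and IER3 correlated at r = 0.916 over the 8 arrays, which hold 4 times of 2 lines and are not independent samples. EGR1 and KLF6 correlated at -0.748 over the same arrays. PECAM1, an endothelial marker, read 50.6, 46.1, 39.7 and 62.4 in wild-type cells and 71.8, 32.4, 33.8 and 58.7 in T387A cells, and its part in the EGR1 values was not tested. The endothelial genes CDH5, VWF and KDR did not exceed the floor on any array, and the summed level of the 5 endothelial markers ran from 118.7 to 198.6.

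The EGR1 window is printed because it holds 2 CArG boxes. At least 1 CArG box was found in 1.16% of all windows. The EGR1 window is chr5:138465229-138465478 on the plus strand. The capitals mark, in order, a GAS match, an EGR match and the 2 CArG boxes, which span bases 105 to 96 and bases 83 to 74 before the start.
EGR1: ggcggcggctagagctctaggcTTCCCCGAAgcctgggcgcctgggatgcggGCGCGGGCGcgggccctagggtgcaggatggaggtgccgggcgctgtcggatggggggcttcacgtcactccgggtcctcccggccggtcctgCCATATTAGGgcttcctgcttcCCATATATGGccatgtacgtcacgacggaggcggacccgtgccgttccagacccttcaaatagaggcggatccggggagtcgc
GAS matches were in 6.57% of all windows. No CArG box was matched in the 250 bases before the start of KLF6, FOS, JUN, JUNB, IER2 or DUSP1. Bases further upstream were not searched.

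DUSP1 had estimates of opposite sign at 4 h and 8 h, and neither passed the test. It lies on chromosome 5 from 172768096 to 172771195 and read 518.7, 448.0, 624.0 and 512.0 in wild-type cells and 501.3, 393.1, 536.2 and 369.3 in T387A cells. Both 4 h arrays lay below, and both 8 h arrays above, the untreated pair. In one direction or the other 40.4% of all genes were separated in this way at 4 h and 38.9% at 8 h. The estimates were -0.28 ± 0.13, 0.18 ± 0.13 and -0.23 ± 0.13 at 4, 8 and 24 h (limma adjusted p = 0.354, 0.581 and 0.522). Its window, chr5:172771196-172771445 on the minus strand, is shown because it was the single one of the 7 with the full CRE, here at bases 125 to 118 before the start, followed by an E-box.
DUSP1: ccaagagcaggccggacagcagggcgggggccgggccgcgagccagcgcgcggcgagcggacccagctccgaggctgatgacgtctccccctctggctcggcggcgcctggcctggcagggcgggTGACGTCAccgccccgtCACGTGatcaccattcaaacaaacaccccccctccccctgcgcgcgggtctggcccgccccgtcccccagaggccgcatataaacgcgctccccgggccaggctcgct
The CRE was in 1.65% of all windows.

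The AP-1 genes did not pass the test at any time. FOSL1, which encodes FRA-1 and lies on chromosome 11 from 65892049 to 65900545, read 176.3, 197.9, 220.8 and 264.7 in wild-type cells, each time above the one before. In T387A cells it read 241.3, 202.1, 288.6 and 304.5, lowest at 4 h. Both 24 h arrays exceeded both untreated ones, and 35% of all genes were separated at 24 h in one direction or the other. The FOSL1 estimate at 24 h was 0.46 ± 0.13 (unadjusted 95% interval 0.12 to 0.81, limma adjusted p = 0.246).

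JUN, on chromosome 1 from 58780791 to 58784047, varied least in log2 level of the 9 genes tested. It read 1193.8, 1104.8, 1223.7 and 1185.3 in wild-type cells and 1247.0, 1231.9, 1203.6 and 1318.6 in T387A cells, and the times overlapped. Its 3 estimates against 0 h lay between -0.06 and 0.04, and the 95% intervals together ran from -0.31 to 0.28. JUNB, on chromosome 19 from 12791486 to 12793315, read 17.8, 19.6, 19.2 and 18.2 in wild-type cells and 18.8, 16.2, 14.5 and 23.4 in T387A cells, near the floor. Its interval at 8 h, -0.67 to 0.41, leaves room for changes that these arrays could not detect.

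FOS, on chromosome 14 from 75278828 to 75282230, did not exceed the floor on any of the 8 arrays. It read -6.9, -7.1, -0.5 and -4.4 in wild-type cells and 10.4, -1.4, 1.6 and -1.4 in T387A cells, so it was not tested. The highest value was that of untreated T387A cells. No array was taken between 0 h and 4 h.

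IER2, on chromosome 19 from 13150411 to 13154911, read 74.5, 114.8, 100.3 and 109.4 in wild-type cells and 94.3, 115.3, 96.5 and 98.0 in T387A cells. All 6 treated arrays were above both untreated ones, in T387A at 8 h by a small margin. Such a separation, in one direction or the other, was seen for 11.3% of all genes. The estimates were 0.46 ± 0.14, 0.23 ± 0.14 and 0.30 ± 0.14 at 4, 8 and 24 h (limma adjusted p = 0.22, 0.546 and 0.453). With the floor at 100, near the level of IER2, they were 0.20, 0.0022 and 0.065. With 1 array left out at a time IER2 ran from 0.25 to 0.66, from 0.026 to 0.44 and from 0.10 to 0.51.

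Groups that do not overlap were common on these arrays. At 4 h both arrays lay beyond both untreated ones for 6 of the 9 genes, namely KLF6 and IER2 above and EGR1, IER3, DUSP1 and MYC below, against 40.4% of all genes. At 8 h this held for 6 of the 9 (38.9% of all genes) and at 24 h for 5 of the 9 (35% of all genes). All 6 treated arrays lay beyond both untreated ones for KLF6, IER2 and MYC, and for 11.3% of all genes. The median estimate of the 9 genes was -0.06 at 4 h, -0.01 at 8 h and 0.17 at 24 h, with 2, 4 and 7 positive estimates, and the median of all genes was 0.00 at each time. Untreated cells were measured at 0 h alone, so IFN-β and time in culture cannot be told apart.

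**Figure D2:**
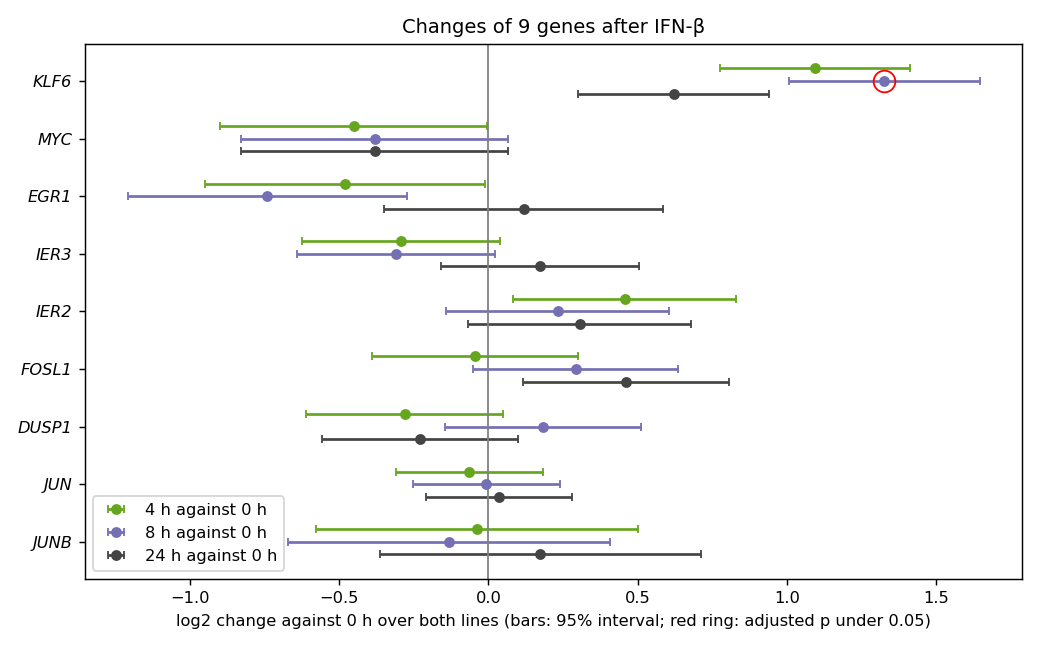
Log2 change against 0 h over both lines (horizontal axis) for the 9 genes above the floor at 4 h (green), 8 h (purple) and 24 h (dark grey), with 95% intervals as bars and a red ring at a limma adjusted p under 0.05. The interval of KLF6 at 8 h, 1.01 to 1.65, is the ringed one, and those of JUN lie around 0.

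The lines were then compared to ask whether T387A shifts these genes. None of the 9 genes passed, and limma called 0 of 13656 genes (0%), with 1496 genes at an unadjusted p under 0.05. FOSL1 in T387A differed from wild type by 0.45, 0.03, 0.39 and 0.20 on the log2 scale at 0, 4, 8 and 24 h. Its estimate was 0.27 ± 0.09 (limma adjusted p = 0.427). DUSP1 differed by -0.05, -0.19, -0.22 and -0.47, with an estimate of -0.23 ± 0.09 (limma adjusted p = 0.454). For how many of all genes the sign is the same at all 4 times was not counted. KLF6 differed by 0.31, 0.31, 0.12 and -0.04 at these times, an estimate of 0.18 ± 0.09 with a 95% interval of -0.05 to 0.40 (limma adjusted p = 0.552).

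Single arrays differed most for MYC and DUSP1 at 24 h, EGR1 and FOSL1 at 0 h and JUNB at 8 h. MYC in T387A differed from wild type by -0.48 at 24 h on its brighter probe. The second MYC probe read 210.2 in wild type and 179.9 in T387A at 24 h, a smaller difference on the log2 scale. The residual SD of the fit gives a difference of 2 arrays an SD of 0.185 for genes with a mean level of 200 to 1000, the class of MYC and DUSP1, and of 0.451 for genes under 50, the class of EGR1 and JUNB. The residual SD behind the 0.185 was 0.131, while that of MYC itself was 0.196. None of the 9 genes was 2-fold apart between the lines at any time. At 0, 4, 8 and 24 h 2.41%, 2.79%, 1.68% and 4.27% of all genes were.

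The IFN-β responses of the 2 lines differed for none of the 9 genes by the test of the difference itself (limma adjusted p = 1 for each), where 0.747% of all genes passed. For KLF6 the response in T387A minus that in wild type was -0.18 ± 0.55, with a 95% interval of -1.58 to 1.23, so that large differences would have gone undetected. The test pooled 4, 8 and 24 h, so changes of any gene between these times counted as spread. The residual SD of KLF6 was 0.370 in it, against 0.118 in the fit of time plus line. Within single lines KLF6 was 1.09, 1.42 and 0.79 above 0 h in wild type at 4, 8 and 24 h, and 1.10, 1.23 and 0.45 in T387A. EGR1 was -0.43 from 0 h at 8 h in wild type and -1.05 in T387A, which was past 2-fold there, as were 3.74% of all genes. IER2 had the smallest unadjusted p of the 9, 0.0878, with a difference of -0.41 ± 0.19, which was -0.043 with the floor at 100. For MYC the difference of the responses was -0.21 ± 0.25 on the brighter probe and 0.11 ± 0.18 on the second, with each probe tested on its own. Its sign thus depended on the probe.

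**Figure D3:**
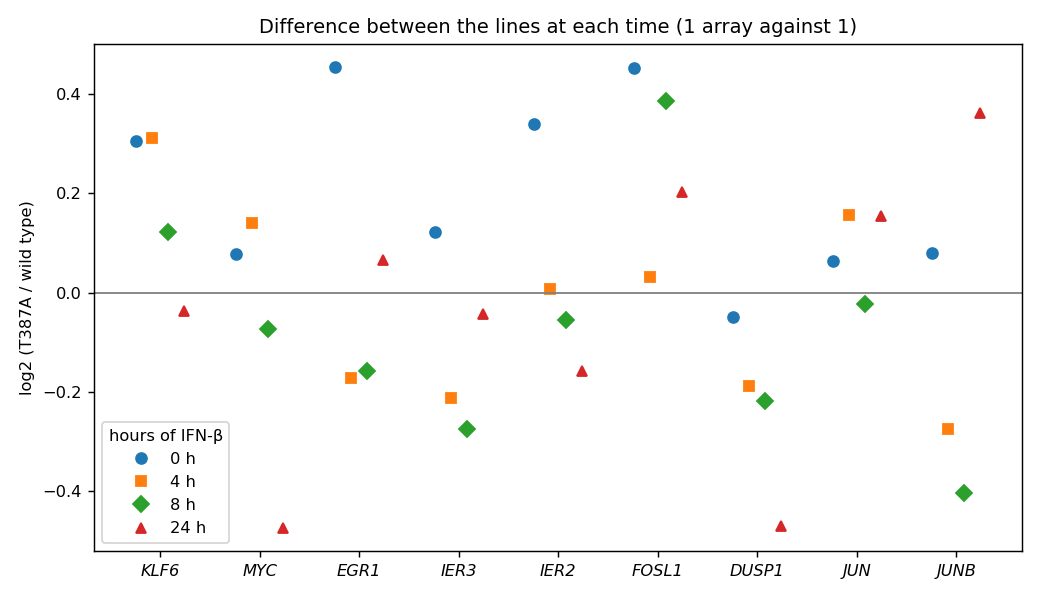
Log2 ratio of T387A to wild type (vertical axis) for the 9 genes above the floor at 0, 4, 8 and 24 h, 1 array against 1 per point. FOSL1 is at 0.45 at 0 h, DUSP1 at -0.47 at 24 h, and MYC, on its brighter probe, at -0.48 at 24 h.

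None of 25 other immediate early genes tested passed in any of the 6 comparisons, and their median was -0.00 at 4 h, 0.07 at 8 h and 0.13 at 24 h against 0.00 for all genes. ATF3, a stress-induced transcription factor, read 43.7, 79.7, 80.9 and 63.1 in wild type and 65.9, 128.5, 105.6 and 49.1 in T387A, with an estimate of 0.92 ± 0.27 at 4 h (limma adjusted p = 0.206). ZFP36, which encodes the mRNA-destabilising protein tristetraprolin, had estimates of 0.68 ± 0.11 at 4 h and 0.80 ± 0.11 at 24 h (limma adjusted p = 0.0965 and 0.0664). TIPARP had 0.50 ± 0.12 and PHLDA1 -0.49 ± 0.11 at 4 h (limma adjusted p = 0.162 and 0.142).

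Of 17 MAP kinase phosphatases and ERK feedback inhibitors besides DUSP1, 1 passed as higher and 0 as lower at 24 h against 4 h, where 1.02% of all genes passed. In that comparison 13 had estimates above 0 and 3 below. The gene that passed was DUSP5, a nuclear phosphatase specific for ERK. It read 980.7, 546.3, 684 and 997 in wild type and 921, 479.7, 628.8 and 1013.5 in T387A, lowest at 4 h in both. It rose by 0.97 ± 0.10 between 4 h and 24 h (limma adjusted p = 0.0427), and its 4 h difference from 0 h was -0.89 ± 0.10 (limma adjusted p = 0.0632). SPRY4, a Sprouty inhibitor of ERK signalling, had -0.67 ± 0.12 at 4 h, ERRFI1 -0.45 ± 0.13 and SPRED2 -0.45 ± 0.23 (limma adjusted p = 0.109, 0.206 and 0.407). At 4 h 4 genes of the list had estimates above 0 and 12 below, and the median was -0.14. The DUSP5 call was lost in the fit without the line (limma adjusted p = 0.0503) and without any 1 array.

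None of the 15 ERK pathway kinases and ternary complex factors tested passed in any comparison. Their median was -0.03 at 4 h, -0.18 at 8 h and -0.19 at 24 h, where 14 of the 15 had negative estimates. PDGFRB, a growth factor receptor, had -0.66 ± 0.14 at 4 h, the kinase MAP2K2 -0.63 ± 0.12, and the SRF partners ELK3 -0.59 ± 0.12 and ELK4 0.55 ± 0.35 (limma adjusted p = 0.136, 0.11, 0.117 and 0.491).

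Among MYC's partners and targets 1 gene passed. None of the 10 network partners tested did. MXD1, an antagonist of MYC that also binds MAX, had 0.49 ± 0.15 at 4 h (limma adjusted p = 0.214). MXD4, another of these partners, had -0.36 ± 0.14 at 4 h (limma adjusted p = 0.285). Of the 10 partners 3 had estimates above 0 at 4 h and 7 below. Of 26 MYC target genes of ribosome and nucleotide synthesis and of growth, ODC1 alone passed, as lower at 24 h than at 4 h, where 1.02% of all genes passed in either direction. ODC1 encodes ornithine decarboxylase, the first enzyme of polyamine synthesis. It read 2256.5, 3072, 2153.5 and 1343.1 in wild type and 2110.3, 2760.9, 1600 and 1125.1 in T387A, highest at 4 h in both lines. It fell by 1.24 ± 0.12 between 4 h and 24 h (limma adjusted p = 0.0427), a call lost in the fit without the line (limma adjusted p = 0.0546) and without any 1 array. At 4 h, when MYC was at -0.45, 19 of the targets had estimates above 0 and 7 below, and the median was 0.11. NOP16 had 0.44 ± 0.11, NOP58 0.44 ± 0.16 and POLR1B -0.54 ± 0.18 (limma adjusted p = 0.165, 0.259 and 0.226). At 8 h, when MYC was at -0.38, 14 of the targets had estimates above 0 and 12 below, and the median was 0.04. At 24 h the median of the targets was 0.04. For how many of all genes the estimate lay above 0 was not counted, and the part of MYC in these values was not tested.

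**Figure D4:**
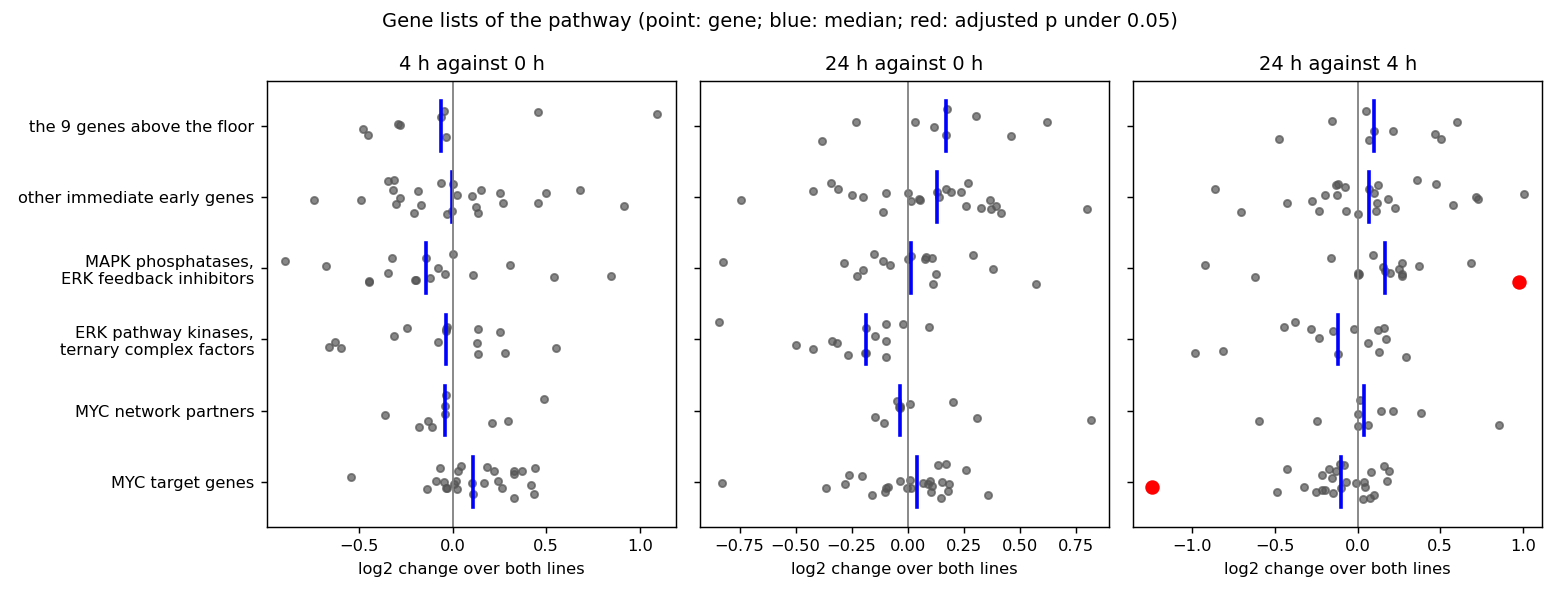
Log2 change over both lines (horizontal axis) of the 9 genes and of 5 lists of related genes at 4 h against 0 h, 24 h against 0 h and 24 h against 4 h, with 1 point per gene, a blue bar at each list's median and red points at a limma adjusted p under 0.05. The 2 red points, both in the right panel, are DUSP5 at 0.97 and ODC1 at -1.24.

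For each of the 9 genes, the 2 genes with the most similar profile were sought among 9097 others above the floor on all 8 arrays, by Pearson r of log2 levels. KLF6 was most like RBM43 (r = 0.98), an RNA-binding motif gene, and CCND3 (r = 0.979), which encodes cyclin D3. RBM43 read 21.9, 74.5, 87.3 and 50.8 in wild type and 23.5, 84.5, 133.3 and 48.8 in T387A, and CCND3 858.6, 1276.6, 1446.9 and 1198 in wild type and 964.6, 1567.5, 1639.7 and 1280.6 in T387A. MYC was most like HSD17B4 (r = 0.969) and ACY1 (r = 0.96), EGR1 like FAM86HP (r = 0.979) and DGKD (r = 0.97), and IER3 like HMGN4 (r = 0.981) and TNS3 (r = 0.979). For FOSL1 these were NDUFA7 (r = 0.97) and ENDOD1 (r = 0.951), for IER2 POLR3C (r = 0.97) and USP30 (r = 0.961), and for DUSP1 SFXN1 (r = 0.958) and ZNF282 (r = 0.949). JUN was most like RAB3GAP1 (r = 0.969) and TMCO1 (r = 0.961), and JUNB like PGRMC2 (r = 0.938) and PDE6D (r = 0.931). Each is the highest of 9097 values over 8 arrays that share times and lines, given as a description.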

How the data were processed

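RNA was labelled with biotin and hybridised to Illumina bead arrays. The submitters' processing notes list GenomeStudio, with no version or settings. Each deposited value is a linear intensity. The table itself shows that background had been subtracted (28.6% at or below 0) and that arrays had been quantile-normalized (78.6% of ranks identical on all 8 arrays), so no further normalization was applied. Precision is limited by there being only 8 arrays.

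The probe with the highest mean intensity stood for a gene. Values under 10.7 were raised to it before log2; percentile 1 of the table lies at -10.7, and the floor is its size. Limma 3.58.1 in R 4.3.3 (lmFit and eBayes, Benjamini-Hochberg over 13656 genes, adjusted p under 0.05) fitted time as 4 levels plus line on all 8 arrays, with 3 residual degrees of freedom. An interaction term of line by treated or not tested whether the responses differ, with a lone untreated array per line assumed to vary like the treated ones. The labels do not say whether the 2 lines at a time were separate experiments. In the fit of time plus line a constant difference between the lines is removed. Its p-values thus reflect the spread left in these 8 arrays, which includes how the lines differ in their time courses.

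All 10 genes were named, and of each further list the genes that passed and up to 4 with the largest estimates at 4 h among those above the floor on all arrays. The members, lists and tests were chosen with earlier results of these data known. The fits were tested on simulated data. Alternatives were the floor (doubled, at 100, or none with an offset of 16), a filter that asks for 4 arrays above it, probe means per gene, cyclic loess, median scaling, a trended and robust prior, a fit without line or time, and omission of each array. Testing every probe on its own was chosen after seeing the data.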

Additional observations from a re-analysis of the deposited data

How the results depend on the processing

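Among the 9 genes the rise of KLF6 at 8 h was the single call, and its values without each array stand beside it. With the floor at 100 KLF6, FOSL1 and IER3 also passed between 4 h and 24 h (limma adjusted p = 0.0320, 0.0335 and 0.0373). In that setting 1011 of the 6335 genes tested passed in this comparison. Estimates near 0 changed sign: with the floor doubled JUNB gave 0.032 for T387A against wild type and 0.043 for the difference of the responses, with the floor at 100 IER2 gave -0.032 for T387A against wild type, with the mean of its probes MYC gave -0.032 for 24 h against 4 h, and with cyclic loess JUN gave 0.022 at 8 h. The cause was not tested. Leaving out 1 array at a time also turned signs, with ranges at 4 h FOSL1 -0.20 to 0.11, JUNB -0.18 to 0.11; at 8 h JUN -0.082 to 0.067, JUNB -0.36 to 0.098; at 24 h JUN -0.0091 to 0.079, JUNB -0.11 to 0.46, EGR1 -0.15 to 0.39; for 24 h against 4 h JUNB -0.070 to 0.49, DUSP1 -0.11 to 0.21, MYC -0.19 to 0.33; for T387A against wild type JUNB -0.20 to 0.056, EGR1 -0.088 to 0.12, IER2 -0.069 to 0.097, MYC -0.16 to 0.048; for the difference of the responses JUN -0.0087 to 0.065, KLF6 -0.33 to 0.064. The number of all genes called by limma at 4 h, 8 h and 24 h against 0 h, for 24 h against 4 h and for T387A against wild type was 47, 129, 139, 139 and 0. In the same order it was 292, 257, 264, 579 and 1 with the floor doubled, 619, 468, 351, 1011 and 10 with the floor at 100, 259, 270, 270, 525 and 7 without a floor, 350, 300, 275, 722 and 2 with the trended and robust prior, and 85, 162, 169, 254 and 1 with the filter on 4 arrays. Without the line it was 15 at 4 h and 21 for 24 h against 4 h, where every probe on its own gave 8. Without any 1 array it was 0 in all 5 comparisons (unadjusted p under 0.05 for 1197 to 2930 genes). For the difference of the responses 102 genes passed, 198 with every probe on its own, 2 with cyclic loess or median scaling, 0 to 119 without 1 treated array, and 0 with the floor doubled, at 100 or absent, with the filter, with the other prior and with time as 4 levels, so a count of all genes is not stable there. It could not be fitted without either untreated array. Genes past 2-fold in both lines numbered 133, 187 and 178 at 4, 8 and 24 h, 598, 545 and 553 past 1.5-fold and 50, 85 and 87 with the floor at 100. Between the lines at 0, 4, 8 and 24 h they numbered 329, 381, 230 and 583, 1414, 1471, 1187 and 1910 past 1.5-fold, 60, 87, 51 and 118 with the floor doubled and 0, 23, 10 and 8 with the floor at 100. The labels give no replicate numbers. The fit of time plus line already compares the lines within each time, and without time T387A against wild type again gave 0 genes (813 at an unadjusted p under 0.05).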
